A study of Mus musculus with 70 samples.

Results

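Fos, Fosb, Jun, Junb, Atf3, Egr1, Ier2, Btg2, Zfp36 and Dusp1 are immediate early genes that are widely used as a sign of stress during cell dissociation. They were picked by name from the 43346 genes of a mouse forebrain microglia study, and each of the 10 names matched 1 row. Levels are given as RPKM, reads per kilobase of gene scaled to the number of mapped reads, so levels can be set side by side between genes. Between kinds of library they depend on the scaling, as given below for pulldown against input. The study holds 70 RNA-seq libraries in 17 groups. All animals carried Cx3cr1-CreERT2-IRES-eYFP/+ together with Rpl22-HA/+ (RiboTag), and tamoxifen was given at 100 µg/g on 3 days, so ribosomes carried an HA tag in cells in which the Cx3cr1 promoter had driven Cre. In RiboTag libraries the tagged ribosomes were pulled down from forebrain that had been sonicated at once in a buffer with cycloheximide. In sorted libraries the forebrain was digested with collagenase for 20 minutes, cleared of myelin on Percoll, stained, and sorted for CD11b+ CD45lo/int cells.

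The LPS experiment held 3 saline sorted, 3 LPS sorted, 4 saline RiboTag, 3 LPS RiboTag and 4 saline input libraries, where input is RNA of the whole forebrain lysate. LPS, a bacterial wall component, was injected intraperitoneally 24 hours before harvest. The other RiboTag experiments each had their own controls. Poly(I:C), a double-stranded RNA that mimics a virus, was injected 24 hours before harvest in 3 libraries with 3 saline controls. APP/PS1 mice, a model of amyloid deposition, gave 5 libraries at 9 to 10 months with 5 control libraries. The tau model had 5 libraries from mice of 9 to 10 months injected with rAAV1-TauP301L and 5 from mice injected with rAAV1-GFP. Ageing was covered by 5, 5 and 4 female libraries at 3, 12 and 24 months and by 5, 4 and 4 male libraries at the same ages. The age of the mice in the LPS and poly(I:C) experiments, the doses, and the promoters of the APP/PS1 transgenes and vectors are not stated in the labels. The labels speak of 3 to 5 animals per condition but do not tie each library to an animal, so p-values measure the spread between libraries.

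Immediate early genes are transcribed within minutes of a stimulus and need no new protein for it. Kinases such as ERK, p38 and JNK act on factors that already sit at their promoters, among them SRF with its ternary complex partners and CREB. The transcripts are short-lived, and products of the same wave, such as the RNA-decay factor of Zfp36 and the phosphatase of Dusp1, help to shut the wave down. In brain, neuronal firing induces many of the same genes, and digestion of tissue into single cells is known to induce them in microglia.

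Libraries held 20.5 to 47.2 M reads in genes. The 10 microglial markers, among them P2ry12, Tmem119 and Cx3cr1, summed to 21.3 to 25.7 RPKM in input, 676 to 2034 RPKM in saline RiboTag libraries and 3097 to 3350.3 RPKM in saline sorted libraries. Within the saline RiboTag group this sum was 1745 and 2034 RPKM in replicates 1 and 2 but 676 and 742 RPKM in replicates 3 and 4. The 10 neuronal markers summed to 484.7 to 567 RPKM in input, 199 to 244 RPKM in saline RiboTag and 0.974 to 3.80 RPKM in saline sorted libraries, so pulldowns kept neuronal RNA and sorted cells held almost none. Sorted libraries instead held RNA of neutrophils and monocytes. The sum of those 11 markers ran from 5449.7 to 18249 RPKM in saline sorted cells and from 12315 to 48542 RPKM in LPS sorted cells, against 5.17 to 23.7 RPKM in saline and 8.61 to 9.88 RPKM in LPS RiboTag libraries. In bulk RNA of this kind, fewer cells of a type and less RNA per cell cannot be told apart.

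Among the members, Fos lies on mouse chromosome 12 (85473890 to 85477273), Jun on 4 (95049034 to 95052222), Zfp36 on 7 (28376784 to 28379255), and Atf3 (191170296 to 191218039) and Btg2 (134075170 to 134079120) both on 1, in the mm10 coordinates of the deposited table. Promoters of 8 of the 10 members were searched in RefSeq windows of 300 bases, from 250 before to 50 after the gene start on GRCm38.p6. The promoters of Egr1 and Ier2 were not analysed here. The letters TGACG, the core of the site that CREB and ATF factors recognise, were found on either strand in 6 of the 8 windows (Fos, Fosb, Junb, Atf3, Btg2 and Dusp1), against 20.8% of 32851 windows of all genes. Its full palindrome TGACGTCA, which overlaps TGACG on both strands, was in the windows of Btg2 and Dusp1 and in 1.79% of all windows. The AP-1 letters TGANTCA were in none of the 8 and in 7.81% of all, and the CArG box, bound by SRF, was in the window of Zfp36 and in 1.63% of all. The 250 bases before the start of 4 members that hold TGACG are shown because Fos, Btg2 and Dusp1 were called lower together in males of 12 months and Atf3 was the member that separated the most pulldown groups. Capitals mark TGACG on either strand, and the sequences run 5′ to 3′ along each gene. Fos is at chr12:85473640-85473889 on the plus strand, Atf3 at chr1:191183334-191183583, Btg2 at chr1:134079156-134079405 and Dusp1 at chr17:26508473-26508722, all 3 on the minus strand. The RefSeq start of Atf3 lies inside the longer span that the deposited table gives.
Fos: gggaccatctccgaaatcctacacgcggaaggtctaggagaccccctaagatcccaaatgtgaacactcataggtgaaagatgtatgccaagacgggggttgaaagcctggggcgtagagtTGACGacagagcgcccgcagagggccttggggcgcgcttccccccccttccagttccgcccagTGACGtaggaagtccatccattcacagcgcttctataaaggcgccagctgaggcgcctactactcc
Atf3: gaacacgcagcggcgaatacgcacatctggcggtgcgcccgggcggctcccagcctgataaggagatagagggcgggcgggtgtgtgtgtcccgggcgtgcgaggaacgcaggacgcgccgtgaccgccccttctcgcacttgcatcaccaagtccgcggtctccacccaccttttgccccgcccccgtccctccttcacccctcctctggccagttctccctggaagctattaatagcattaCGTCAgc
Btg2: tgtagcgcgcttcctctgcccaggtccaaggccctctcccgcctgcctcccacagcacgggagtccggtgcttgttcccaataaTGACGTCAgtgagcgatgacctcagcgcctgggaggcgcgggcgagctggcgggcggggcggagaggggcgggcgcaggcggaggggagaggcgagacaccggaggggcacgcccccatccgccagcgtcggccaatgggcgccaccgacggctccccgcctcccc
Dusp1: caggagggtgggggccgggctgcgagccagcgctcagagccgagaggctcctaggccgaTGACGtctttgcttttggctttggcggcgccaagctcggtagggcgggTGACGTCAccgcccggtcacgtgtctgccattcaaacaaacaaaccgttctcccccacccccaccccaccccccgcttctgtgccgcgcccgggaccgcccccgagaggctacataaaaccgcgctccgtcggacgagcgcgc
In Fos the letters start at positions -129 and -66 counted from the gene start, in Atf3 at -7 on the other strand, in Btg2 at the palindrome at -166, and in Dusp1 at -191 and at the palindrome at -143. A match of letters describes the window only.

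All 10 early genes were higher in sorted cells than in RiboTag pulldowns under saline, and no sorted library overlapped a pulldown library for any of them. The rise was largest for Zfp36, 45.3-fold between group means, and smallest for Btg2, 3.42-fold. A call here and below means an adjusted p under 0.05 in limma on log2(RPKM + 1), corrected over all genes that averaged 1 RPKM or more in the fit. 10 of 10 members were called higher, where 12.2% of the 13908 genes tested were called higher, and 15.2% of the genes were higher with no overlap. Fosb, Junb and Atf3 averaged under 1 RPKM in saline pulldowns and passed the filter through the sorted libraries. Without the filter 10 of 10 were called too, but the share of all genes called in that fit is not given here. The median difference of the members was 3.48 on the log2 scale, against -0.25 for all genes tested.

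**Figure D1:**
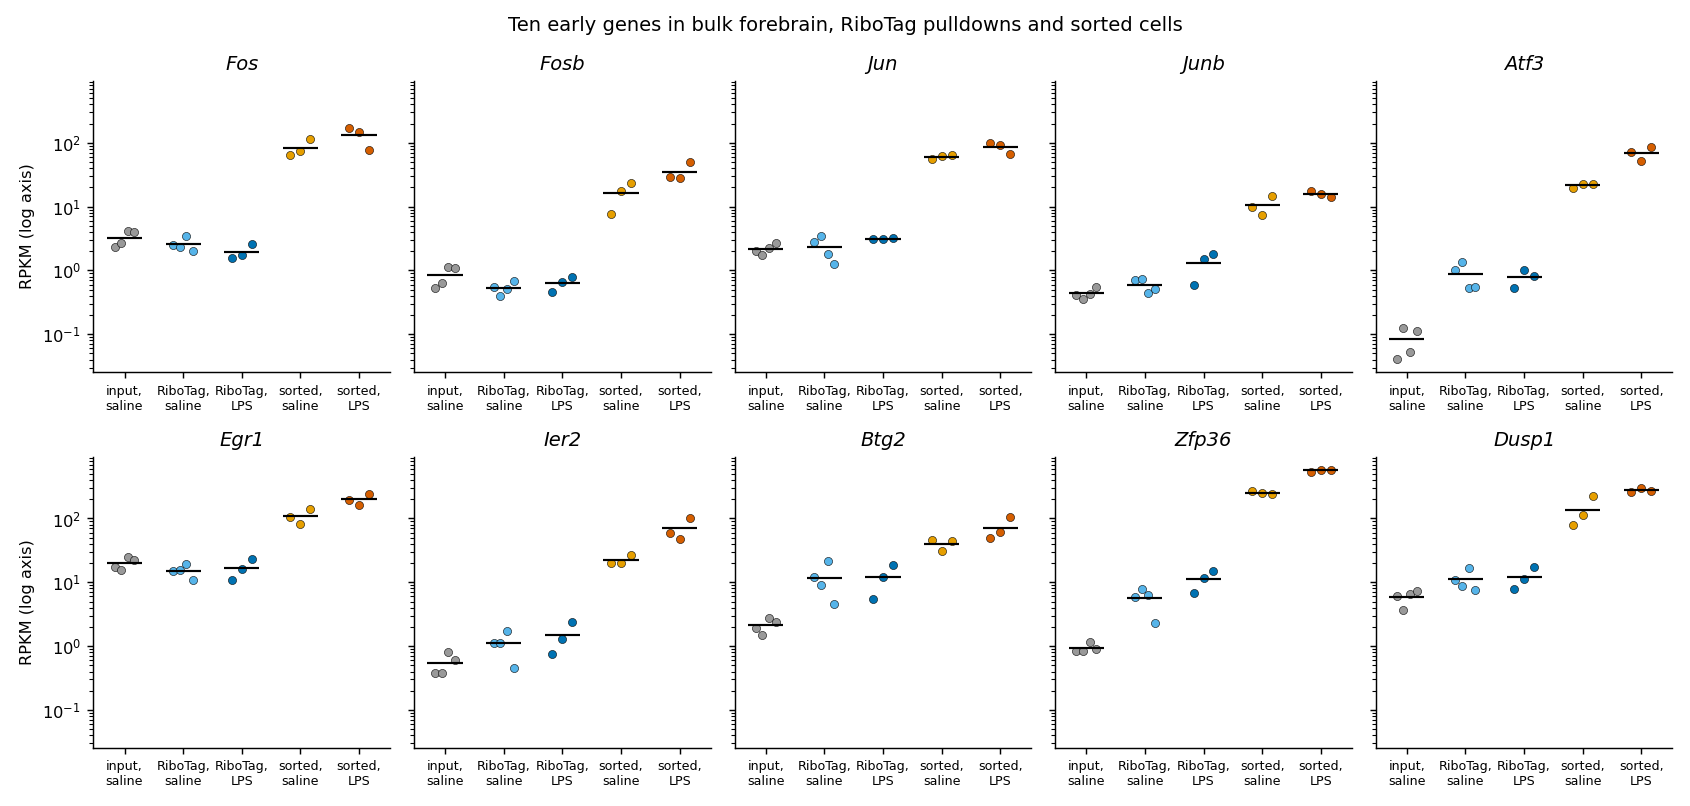
RPKM on a log axis for each of the 10 genes in the 17 libraries of the LPS experiment, where points are libraries, bars are group means, and panels are genes. Sorted libraries (orange) stand above input (grey) and RiboTag libraries (blue) in every panel, and the gap is smallest for Btg2.

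The AP-1 subunits come first. Fos, whose protein pairs with JUN proteins to form AP-1, read 63.4, 75.5 and 114 RPKM in the saline sorted libraries and 2.50, 2.33, 3.45 and 2.02 RPKM in the saline pulldowns. The difference was 4.55 ± 0.31 on the log2 scale (SE, adjusted p = 1.79e-07), with every sorted library far above every pulldown. Jun, the partner subunit, read 56.6, 61.1 and 63.2 RPKM in sorted cells and 2.80, 3.52, 1.79 and 1.24 RPKM in pulldowns, a difference of 4.25 ± 0.25 (adjusted p = 6.58e-08). Sorted libraries lay close together for Jun, while in the saline pulldowns replicates 1 and 2, those with the higher microglial marker sums, were the higher ones. Fosb, a FOS relative that neurons also use, was at 16.4 ± 8.3 RPKM (SD, n = 3) against 0.529 ± 0.12 RPKM (n = 4), and Junb, a JUN relative that often restrains JUN, at 10.6 ± 3.7 RPKM against 0.596 ± 0.14 RPKM. The saline sorted libraries of Fosb ran from 7.53 to 23.8 RPKM. In the annotation used here an exon of an opposite-strand gene lies within the span of 3 members, Junos in Jun, Gm24748 in Atf3 and Gm44710 in Zfp36. Whether counting used strand is not given, so reads of these pairs cannot be told apart.

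Atf3, a stress-induced repressor of the ATF family, read 19.5, 22.7 and 22.8 RPKM in saline sorted libraries and 1.03, 1.36, 0.526 and 0.558 RPKM in saline pulldowns. It was nearly constant among sorted libraries, and the difference was 3.62 ± 0.24 on the log2 scale (adjusted p = 1.32e-07). Egr1, a zinc-finger factor of growth and synaptic responses, read 106, 82.2 and 143 RPKM against 15.3, 15.5, 19.0 and 11.0 RPKM. Egr1 thus had the highest mean level of the members in the saline pulldowns and differed by 2.77 ± 0.30 (adjusted p = 8.14e-06). Ier2, a nuclear regulator with few known targets, was at 22.5 ± 3.8 RPKM (SD, n = 3) against 1.10 ± 0.52 RPKM (n = 4), a difference of 3.51 ± 0.32 (SE).

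Both feedback genes had the highest mean levels among the members in saline sorted cells. Zfp36, which encodes tristetraprolin and speeds the decay of cytokine and early gene mRNAs, read 266, 254 and 242 RPKM in saline sorted libraries and 5.97, 7.85, 6.31 and 2.31 RPKM in saline pulldowns. That is a difference of 5.36 ± 0.33 on the log2 scale (adjusted p = 8.72e-08), and the sorted libraries lay close together. Dusp1, the phosphatase that switches off p38 and JNK, read 78.9, 112 and 224 RPKM in sorted cells and 11.1, 8.73, 16.9 and 7.66 RPKM in pulldowns. Its sorted libraries spread widely, with replicate 3 far above replicate 1, and the difference was 3.45 ± 0.38 (adjusted p = 1.07e-05). Btg2, an antiproliferative gene of the BTG/TOB family that recruits deadenylases, read 45.9, 30.6 and 44.5 RPKM against 12.3, 9.07, 21.2 and 4.56 RPKM, a difference of 1.84 ± 0.48 (adjusted p = 0.00898). When RPKM were rescaled to the mean log2 level of the microglial markers, an alternative chosen after seeing the data, Btg2 lost its call at 0.30 (adjusted p = 0.605). The other 9 members kept theirs.

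The neutrophil and monocyte markers also differed between the methods, and all 11 were called higher in saline sorted cells. S100a8, a neutrophil granule gene, averaged 4763 RPKM there against 3.59 RPKM in saline pulldowns. The marker sum and the member sum are given side by side for each library. Saline sorted replicate 2 had the highest marker sum, 18249 RPKM, with a sum over the 10 members of 683 RPKM, while replicate 1 had 5449.7 RPKM with 674 RPKM and replicate 3 had 10484 RPKM with 919 RPKM. The part of these cells in the members' levels was not tested.

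After LPS the contrast between methods held for the same 10 genes. 10 of 10 members were called higher in sorted cells than in pulldowns, where 9.93% of all genes tested were, and again no libraries overlapped, as for 15.8% of all genes in that direction. Fosb and Atf3 averaged under 1 RPKM in LPS pulldowns as well. Differences ran from 2.53 ± 0.52 for Btg2 to 5.60 ± 0.35 for Zfp36 on the log2 scale, with a median of 4.44 over the members and -0.28 over all genes. Atf3 had the widest ratio of group means, 89.5-fold, from 72.9, 51.8 and 86.2 RPKM in sorted libraries to 0.526, 1.02 and 0.810 RPKM in pulldowns. Fos reached 66.9-fold, from 173, 147 and 76.4 RPKM to 1.57, 1.76 and 2.59 RPKM. Every LPS sorted library of Atf3 and Fos lay above every pulldown of the study.

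**Figure D2:**
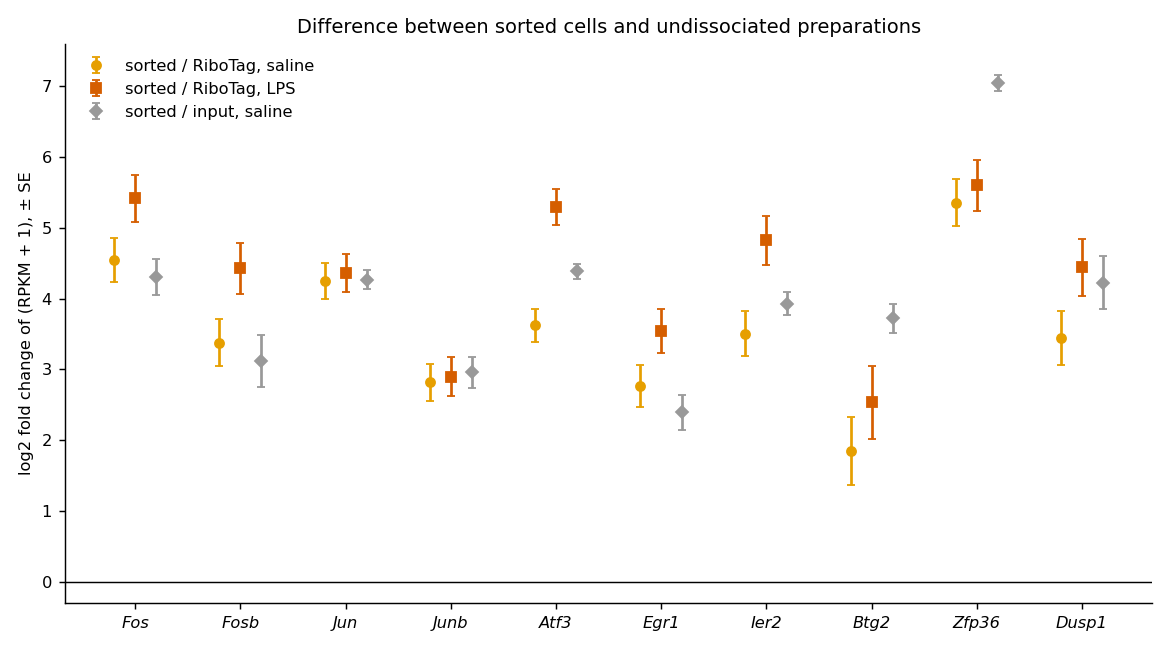
Log2 fold change of (RPKM + 1), with its SE, for sorted cells against RiboTag pulldowns under saline (circles) and LPS (squares) and against saline input (diamonds), for each of the 10 genes. All points lie above 0, from 1.84 for Btg2 under saline to 7.05 for Zfp36 against input.

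Input is bulk forebrain that went through no digestion. Against it, too, 10 of 10 members were called higher in saline sorted cells, where 29.1% of 12572 genes tested were called higher. Fosb, Junb, Atf3, Ier2 and Zfp36 averaged under 1 RPKM in input and passed the filter through the sorted libraries. Without the filter 10 of 10 were called too, but here as well the share of all genes called in that fit is not given. Over all genes 3660 of 7020 calls were higher as deposited and 2871 of 6970 after median-of-ratios scaling. Zfp36 read 0.834, 0.848, 1.14 and 0.894 RPKM in input and differed by 7.05 ± 0.11 on the log2 scale (adjusted p = 2.52e-07). Atf3 read 0.0415, 0.127, 0.0530 and 0.111 RPKM in input, which corresponds to 7, 21, 10 and 20 reads, and differed by 4.39 ± 0.11 (adjusted p = 3.22e-07). Those values of Zfp36 and Atf3 were the lowest of any group in the study, while Egr1 at 20.0 ± 4.4 RPKM (SD, n = 4) and Fos at 3.25 ± 0.90 RPKM in input overlapped their pulldown ranges.

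In pulldown against input the count of members called was near the share of all genes. The median difference of the members tested was 0.40 on the log2 scale, against 0.41 for all genes tested. 6 of the 10 passed the filter of 1 RPKM, and 3 were called higher in pulldowns, where 56.8% of 12780 genes tested were called higher. Over all genes 7256 of 8602 calls were higher as deposited and 3437 of 6942 after median-of-ratios scaling. Btg2 was higher by 1.88 ± 0.36 on the log2 scale (adjusted p = 0.00136), with input at 1.91, 1.50, 2.72 and 2.35 RPKM. Zfp36 was higher by 1.69 ± 0.26 (adjusted p = 0.00044) and Dusp1 by 0.78 ± 0.25 (adjusted p = 0.0190). Fos (-0.24 ± 0.17), Jun (0.02 ± 0.21) and Egr1 (-0.38 ± 0.20) did not pass the test. Scaling moved this comparison, since the median of all genes was 0.41 on the log2 scale as deposited and 0.02 after median-of-ratios scaling. After that scaling Fos at -0.65 (adjusted p = 0.0054) and Egr1 at -0.91 (adjusted p = 0.00127) were called lower in pulldowns, and Dusp1 at 0.28 (adjusted p = 0.333) lost its call, as it also did without input replicate 2 (0.61, adjusted p = 0.0535). Voom made the same changes, with Fos at -0.83 (adjusted p = 0.00552), Egr1 at -0.92 (adjusted p = 0.00081) and Dusp1 at 0.37 (adjusted p = 0.243). Of the 4 members under the filter, Atf3 was higher in pulldowns without it, by 0.76 ± 0.14 (adjusted p = 0.00373), where 30.6% of genes were called higher.

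LPS at 24 hours left the members in pulldowns without a call. 0 of 10 passed in limma, where 1.36% of all genes tested did. Of the 10, 1 had an unadjusted p under 0.05, and limma voom on the recovered reads also called 0. Zfp36 came nearest, at 6.85, 11.5 and 15.2 RPKM after LPS against 5.97, 7.85, 6.31 and 2.31 RPKM, a difference of 0.91 ± 0.33 on the log2 scale (adjusted p = 0.289). Its groups overlapped, since LPS replicate 1 lay below saline replicate 2. Fos (-0.27 ± 0.31), Atf3 (-0.05 ± 0.24) and Btg2 (0.08 ± 0.48) had intervals that include changes of either sign. Jun read 3.13, 3.12 and 3.22 RPKM after LPS, a narrow range inside that of the saline pulldowns. The median over members was 0.11, against 0.12 over all genes. The microglial marker sum was 1745, 2034, 676 and 742 RPKM in these saline libraries and 1710.2, 2359.9 and 2039 RPKM after LPS, and its part in the values was not tested.

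In sorted cells the same injection went with higher means for all 10 members, of which 2 were called. Atf3 was higher after LPS by 1.63 ± 0.25 on the log2 scale (adjusted p = 0.00342), from 19.5, 22.7 and 22.8 RPKM to 72.9, 51.8 and 86.2 RPKM. Ier2 was higher by 1.54 ± 0.34 (adjusted p = 0.0186), from 20.4, 20.2 and 26.9 RPKM to 60.0, 48.0 and 103 RPKM. Neither gene's groups overlapped. The share of all genes called higher was 7.01%, and 975 of 1227 calls were higher as deposited against 557 of 1054 after median-of-ratios scaling. For 8 of the 10 members the LPS libraries lay above all saline libraries, against 13.1% of all genes, and the exceptions were Fos and Junb. Zfp36, at 544, 576 and 576 RPKM, and Fosb, at 28.8, 27.9 and 49.7 RPKM, had differences of 1.15 ± 0.35 and 1.15 ± 0.36 that missed the threshold (adjusted p = 0.0656 and 0.0677). Zfp36 was called with voom (0.77, adjusted p = 0.0117) and in a fit of the 2 sorted groups alone (adjusted p = 0.0431).

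The call for Ier2 was lost with a pseudocount of 0.1 RPKM (adjusted p = 0.0747), median-of-ratios scaling (0.0955), voom (0.0516) and a fit of the 2 sorted groups alone (0.134). Of the alternatives run, the last was the one that ended the call for Atf3 (0.0803). Without saline sorted replicate 3, 4 members were called, with Fosb (adjusted p = 0.0269) and Dusp1 (adjusted p = 0.0313) added. Of the 11 neutrophil and monocyte markers, 1 was called higher after LPS (Cxcr2, 2.15 ± 0.29 on the log2 scale) and 1 lower (Ccr2, -1.52 ± 0.29). The sum of all 11 was 5449.7 to 18249 RPKM in saline and 12315 to 48542 RPKM in LPS sorted libraries, and its part was not tested. LPS sorted replicate 2 had the highest such sum, 48542 RPKM, with a member sum of 1485 RPKM, against 1496 and 1581 RPKM in replicates 1 and 3.

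**Figure D3:**
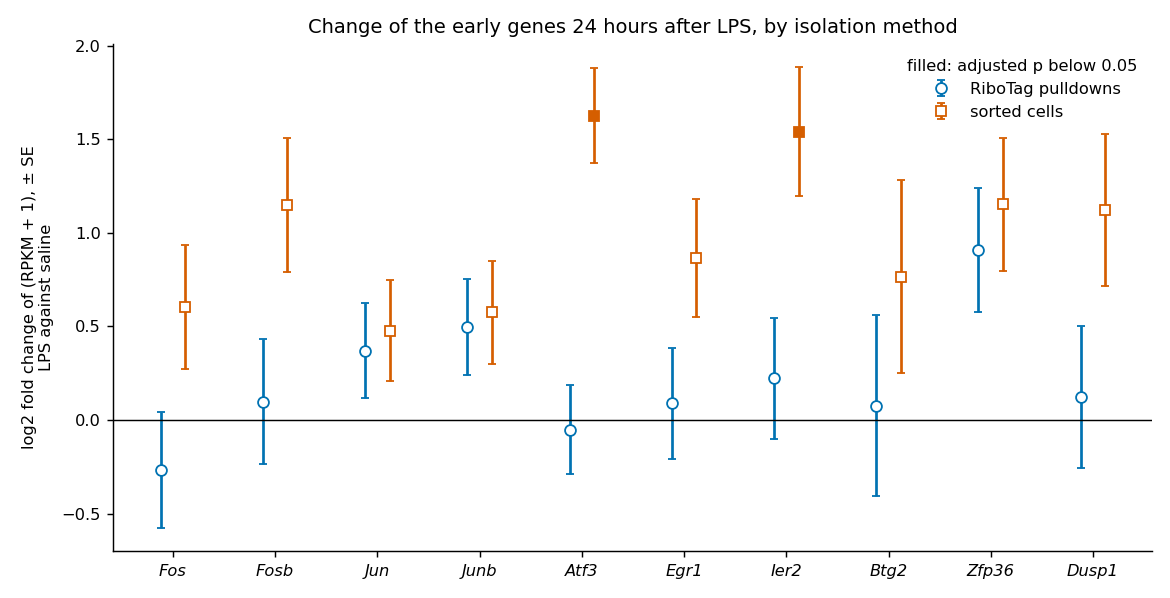
Log2 fold change of (RPKM + 1) for LPS against saline, with its SE, in RiboTag pulldowns (circles) and sorted cells (squares) for each of the 10 genes. Filled symbols passed the test, which only Atf3 at 1.63 and Ier2 at 1.54 in sorted cells did.

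The difference between both LPS effects was itself tested. 0 of 10 members passed in limma, where 0.259% of genes tested did, and voom also called 0, while 2 members had an unadjusted p under 0.05. Atf3 had the smallest p, with an LPS effect larger in sorted cells by 1.68 ± 0.35 on the log2 scale (adjusted p = 0.0873). It passed without LPS sorted replicate 2 (1.88, adjusted p = 0.0366). Ier2 followed at 1.32 ± 0.47 (adjusted p = 0.396). For Jun (0.11 ± 0.37), Junb (0.08 ± 0.37) and Zfp36 (0.24 ± 0.48) the estimates were near 0 with wide errors.

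Across all 60 pulldown libraries the members stayed in ranges far below the sorted cells, with Btg2 as the exception. For 9 members no pulldown library reached the lowest sorted library. Fos, for example, ran from 0.443 to 4.69 RPKM with a median of 2.55 RPKM, against 63.4 RPKM or more in the 6 sorted libraries. Zfp36 ran from 2.31 to 17.9 RPKM, and the lowest sorted library had 242 RPKM. Btg2 ran from 4.56 to 86.1 RPKM, and 26 of the 60 pulldown libraries exceeded its lowest sorted library of 30.6 RPKM. Its highest group mean in the study was in pulldowns, 73.4 ± 14 RPKM in males of 3 months (SD, n = 5), above LPS sorted cells at 71.6 ± 28 RPKM, though the ranges of these groups overlap. For the other 9 genes the LPS sorted group came first and the saline sorted group second. For each of those 9 the highest pulldown group overlapped the group next below it.

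Btg2 was lower after poly(I:C). It read 6.28, 8.96 and 10.6 RPKM after poly(I:C) against 20.8, 19.6 and 22.5 RPKM after saline, a difference of -1.21 ± 0.18 on the log2 scale (adjusted p = 0.00501). Every treated library lay well below every control. Of the 7 members tested it was the 1 called, where 0.23% of 13505 genes were called lower. Fos read 0.761, 1.29 and 1.50 RPKM against 1.79, 2.23 and 2.94 RPKM, also without overlap, but its difference of -0.60 ± 0.17 did not pass (adjusted p = 0.0986). Voom called Fos (-1.07, adjusted p = 0.0427). Ier2 (-0.33 ± 0.13, adjusted p = 0.249) did not overlap either, and it was called without poly(I:C) replicate 3 (adjusted p = 0.0329). Zfp36 pointed the other way, at 8.87, 7.81 and 16.8 RPKM against 7.25, 7.79 and 7.54 RPKM, a difference of 0.44 ± 0.24 (adjusted p = 0.485) in which replicate 3 stands out. The sum of the microglial markers was 278 to 292 RPKM in controls and 539 to 752 RPKM after poly(I:C). With RPKM scaled to the mean log2 level of these markers, 6 of the 7 members were called lower and Jun turned from 0.17 to -0.39 (adjusted p = 0.0181). That scaling called 11453 of the 13505 genes, of which 419 were higher, so the shift was not particular to the members.

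In APP/PS1 pulldowns none of the 8 members tested was called in limma, where 1.31% of 14431 genes were. Over all genes 75 of 189 calls were higher as deposited and 103 of 146 after median-of-ratios scaling. Of the 8 members, 5 had an unadjusted p under 0.05, and voom called 2, Ier2 lower at -0.43 (adjusted p = 0.0454) and Zfp36 higher at 0.28 (adjusted p = 0.0286). Junb came nearest in limma, at -0.23 ± 0.06 on the log2 scale (adjusted p = 0.0824). Btg2 spread most, with 54.8, 21.8, 23.5, 30.4 and 54.4 RPKM in APP/PS1 libraries, around controls of 37.5 to 49.0 RPKM. Atf3 averaged under 1 RPKM here and was outside the test. It read 1.25, 1.23, 1.33, 0.933 and 1.19 RPKM in APP/PS1 libraries, from 109 to 199 reads, and 0.563, 0.478, 0.594, 0.502 and 0.579 RPKM in controls, from 59 to 93 reads. Every APP/PS1 library thus lay above every control. Without the filter its difference was 0.50 ± 0.06 (adjusted p = 0.01), where 0.139% of 33932 genes were called higher, and the call held in 10 of 10 fits that left out 1 library (0.48 to 0.54). That scale understates low genes, and the ratio of group means was 2.19. Of 6 astrocyte markers Gfap was called higher in the same comparison (0.47 ± 0.06, adjusted p = 0.00456), with marker sums of 112 to 124 RPKM against 106 to 122 RPKM, and its part was not tested.

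In the tau model Atf3 was higher. Its libraries read 1.54, 1.39, 2.09, 1.28 and 1.59 RPKM after rAAV1-TauP301L and 0.324, 0.283, 0.640, 0.671 and 0.497 RPKM after rAAV1-GFP, with no overlap. The difference was 0.80 ± 0.10 on the log2 scale (adjusted p = 0.00634) and the ratio of means 3.27. Atf3 was the 1 member called of the 6 tested, where 0.7% of 12864 genes were called higher. It averaged 0.483 RPKM with GFP and passed the filter of 1 RPKM only through the TauP301L group, where it was higher. Without the filter its adjusted p in limma on all libraries was 0.0226. Atf3 falls under the filter when TauP301L replicate 1, 2, 3 or 5 is left out, and without the filter its adjusted p ran from 0.0174 to 0.0739 over 10 such fits, with 3 called and a difference of 0.73 to 0.84. Zfp36 at 0.23 ± 0.07 and Egr1 at -0.51 ± 0.20 fell short of the threshold (adjusted p = 0.131 and 0.221), though voom called Zfp36 (0.27, adjusted p = 0.0349). Fos, Fosb, Junb and Ier2 averaged under 1 RPKM in this experiment and the TauP301L group had the lowest pulldown mean of the study for each. The GFP controls were the next lowest pulldowns for Fos (1.08 against 0.694 RPKM), Junb (0.526 against 0.374 RPKM) and Ier2 (0.878 against 0.587 RPKM). For Fosb the controls were at 0.459 against 0.317 RPKM, and the libraries of both groups overlapped for each of these genes. The neuronal marker sum was 304 to 330 RPKM with GFP and 248 to 285 RPKM with TauP301L, and Gfap was called higher (0.61 ± 0.09, adjusted p = 0.0114). Their part was not tested.

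**Figure D4:**
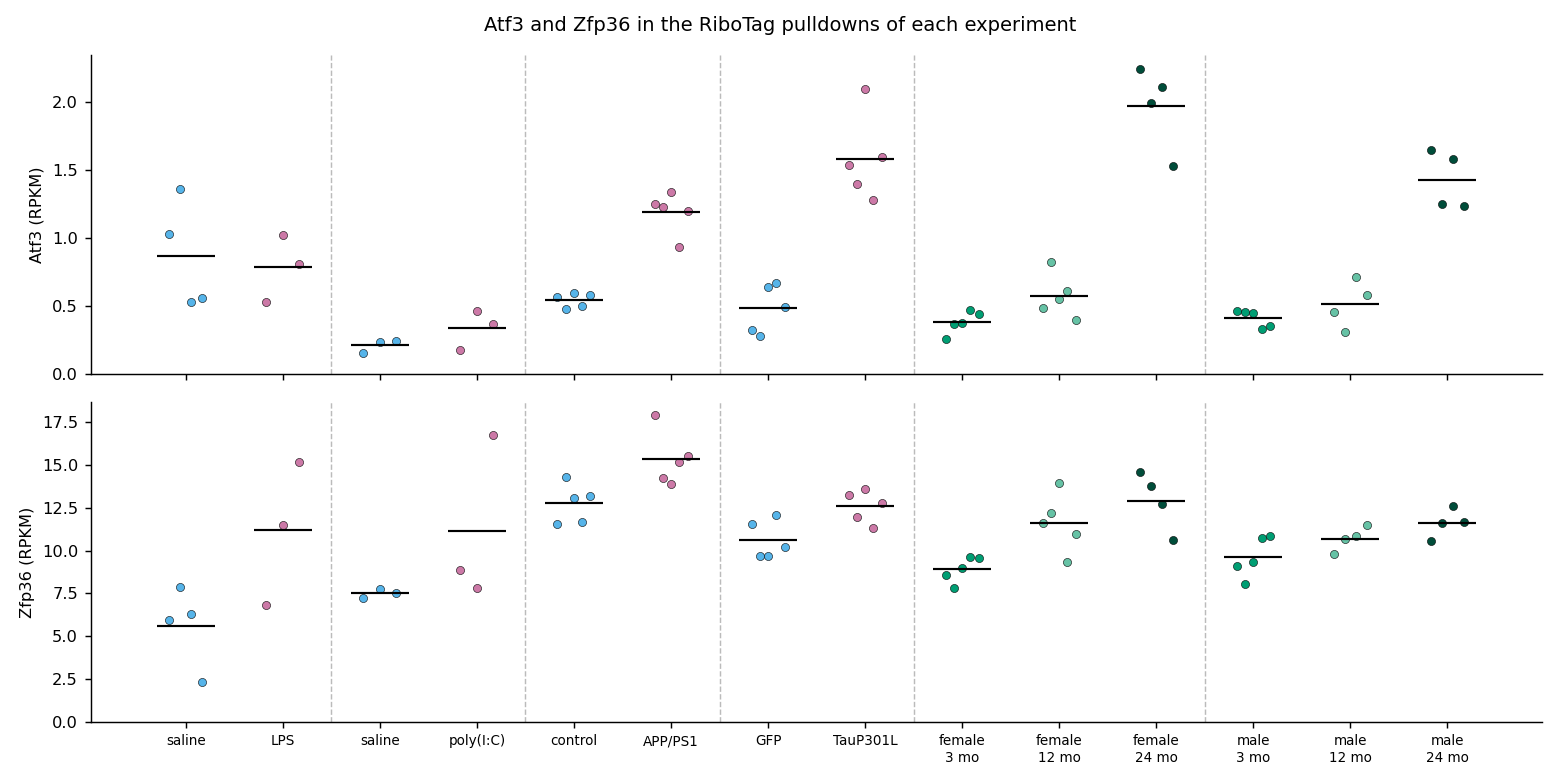
RPKM of Atf3 (top) and Zfp36 (bottom) in each RiboTag library, where points are libraries, bars are group means, and dashed lines part the experiments and sexes. Atf3 sits apart from its controls in APP/PS1, TauP301L and both groups of 24 months, and under LPS it overlaps its controls.

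Atf3 also separated old from young pulldowns in both sexes. In females it read 2.24, 1.99, 2.11 and 1.53 RPKM at 24 months and 0.257, 0.365, 0.375, 0.471 and 0.445 RPKM at 3 months, a 5.14-fold ratio of means. In males it read 1.65, 1.25, 1.58 and 1.24 RPKM at 24 months and 0.461, 0.453, 0.446, 0.333 and 0.356 RPKM at 3 months, a 3.48-fold ratio. No old library overlapped a young one. Its mean over the ageing libraries was under 1 RPKM, so it was tested without the filter. The difference was 1.10 ± 0.08 on the log2 scale in females (adjusted p = 3.49e-09) and 0.78 ± 0.08 in males (adjusted p = 8.07e-07), where 6.8% and 7.97% of 36067 genes were called higher. All 9 fits without 1 library kept the call in each sex. With RPKM scaled to the microglial markers the differences were 0.91 and 0.54 (adjusted p = 4.03e-08 and 9.13e-06). At 12 months Atf3 differed by 0.18 ± 0.08 in females and 0.10 ± 0.08 in males, neither called (adjusted p = 0.335 and 0.61). Markers of other cells moved as well. In females of 24 months 5 of 6 oligodendrocyte markers were called higher, with sums of 131 to 151 RPKM against 93.2 to 111 RPKM at 3 months. Gfap was higher by 1.02 ± 0.05 in females (adjusted p = 1.75e-14) and 0.46 ± 0.05 in males (adjusted p = 6.88e-08). Microglial markers were called higher for 4 of 10 in females and 9 of 10 in males. Their part in the levels of Atf3 was not tested beyond the microglial scaling. The age effect did not pass as different between sexes (-0.32 ± 0.12, adjusted p = 0.44).

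Zfp36 was the member called higher with age in females, where 8 members were tested. It read 8.58, 7.84, 8.96, 9.64 and 9.59 RPKM at 3 months and 14.6, 13.8, 12.7 and 10.6 RPKM at 24 months, without overlap, a difference of 0.48 ± 0.09 on the log2 scale (adjusted p = 0.000597), where 16.7% of 14198 genes were called higher. Over all genes 2369 of 2853 calls were higher as deposited and 1552 of 2874 after median-of-ratios scaling. At 12 months its difference of 0.34 ± 0.09 was called (adjusted p = 0.0389) with 2.56% of genes higher (363 of 418 calls, and 148 of 319 after that scaling, which ended the call for Zfp36 at adjusted p = 0.0749), though the groups overlapped and the call was lost when any of replicates 1, 2 and 3 of either age was left out (adjusted p = 0.0535 to 0.123). With scaling to the microglial markers the difference at 24 months shrank to 0.15 (adjusted p = 0.199). That marker sum was 510 to 657 RPKM at 3 months and 860 to 930.4 RPKM at 24 months in females. In males the difference of 0.25 ± 0.09 at 24 months did not pass (adjusted p = 0.0539). It was called with voom (adjusted p = 0.0215) and without male 3 month replicate 4 (0.0357) or 5 (0.0349) or male 24 month replicate 1 (0.0448).

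In males Btg2 was lower at 12 than at 3 months. It read 52.8, 65.7, 81.0, 86.1 and 81.3 RPKM in males of 3 months, 18.6, 19.0, 20.3 and 32.6 RPKM at 12 months and 32.2, 39.4, 61.2 and 40.4 RPKM at 24 months. The male groups of 3 and 12 months did not overlap, with a difference of -1.67 ± 0.24 on the log2 scale (adjusted p = 0.000105). Ier2 at -0.64 ± 0.17 (adjusted p = 0.0175), Fos at -0.64 ± 0.18 (adjusted p = 0.0212) and Dusp1 at -0.55 ± 0.15 (adjusted p = 0.0173) were lower with it, so that 4 of 8 members tested were called lower at 12 months, where 1.44% of genes were. Over all genes 204 of 1969 calls were lower as deposited and 627 of 1272 after median-of-ratios scaling. Fos read 3.55, 3.75, 4.08, 4.37 and 4.08 RPKM at 3 months and 1.33, 1.84, 2.48 and 3.48 RPKM at 12 months, an ordering in which the highest library of 12 months stays just below the lowest of 3 months. Btg2 kept its call in every fit without 1 library, but the other 3 lost theirs without male 12 month replicate 1 or 2, and Dusp1 also without replicate 3 or without male 3 month replicate 5. Fos also lost its call without the filter (adjusted p = 0.0563), and Dusp1 in a fit of these groups alone (adjusted p = 0.0699). The microglial marker sum was 483 to 643 RPKM at 3 months and 645 to 831 RPKM at 12 months, with 9 of 10 of these markers and 3 of 5 perivascular macrophage markers tested called higher. The part of perivascular macrophages was not tested. With scaling to the microglial markers 7 of the 8 members were called lower. That scaling called 7877 of all 14198 genes tested, of which 96 were higher, so most genes shifted lower with it.

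At 24 months 3 of 8 members were lower in males, where 6.21% of genes were. Over all genes 882 of 3321 calls were lower as deposited and 1805 of 3751 after median-of-ratios scaling. They were Btg2 (-0.76 ± 0.24 on the log2 scale, adjusted p = 0.0196), Dusp1 (-0.57 ± 0.15, adjusted p = 0.00621) and Egr1 (-0.45 ± 0.11, adjusted p = 0.0042). Egr1 read 29.8, 24.8, 31.9, 34.4 and 28.1 RPKM at 3 months and 17.5, 21.7, 25.8 and 21.5 RPKM at 24 months. These groups overlap through a single old library, and those of Btg2 and Dusp1 overlap too. The call for Btg2 was lost without male 24 month replicate 1 (-0.64, adjusted p = 0.0791). The neuronal marker sum was 258 to 264 RPKM in old and 275 to 319 RPKM in young males, with 6 of 10 neuronal markers called lower, and its part was not tested. With scaling to the microglial markers 8 of 8 members were called lower, and Jun and Zfp36 turned sign to -0.34 and -0.25. That scaling called 11773 of all 14198 genes tested, of which 256 were higher, so the shift was not particular to the members.

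In females Btg2 did not pass at either age. It read 43.2, 26.4, 42.4, 48.3 and 54.1 RPKM at 3 months, 21.0, 24.1, 22.9, 30.6 and 48.3 RPKM at 12 months and 64.0, 51.5, 48.3 and 35.3 RPKM at 24 months. Its differences from 3 months were -0.56 ± 0.22 at 12 months (adjusted p = 0.156) and 0.22 ± 0.24 at 24 months (adjusted p = 0.565), and the groups overlapped. Whether the change from 3 to 12 months differs between the sexes was not tested. The change from 3 to 24 months was tested, and it was not shown to differ between them. 0 of 8 members passed in limma for males minus females, where 0.0916% of genes did (2 of 13 calls higher, and 10 of 36 after median-of-ratios scaling), 2 had an unadjusted p under 0.05, and voom called 0. Btg2 (-0.98 ± 0.33, adjusted p = 0.21) and Dusp1 (-0.65 ± 0.21, adjusted p = 0.174) came nearest.

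**Figure D5:**
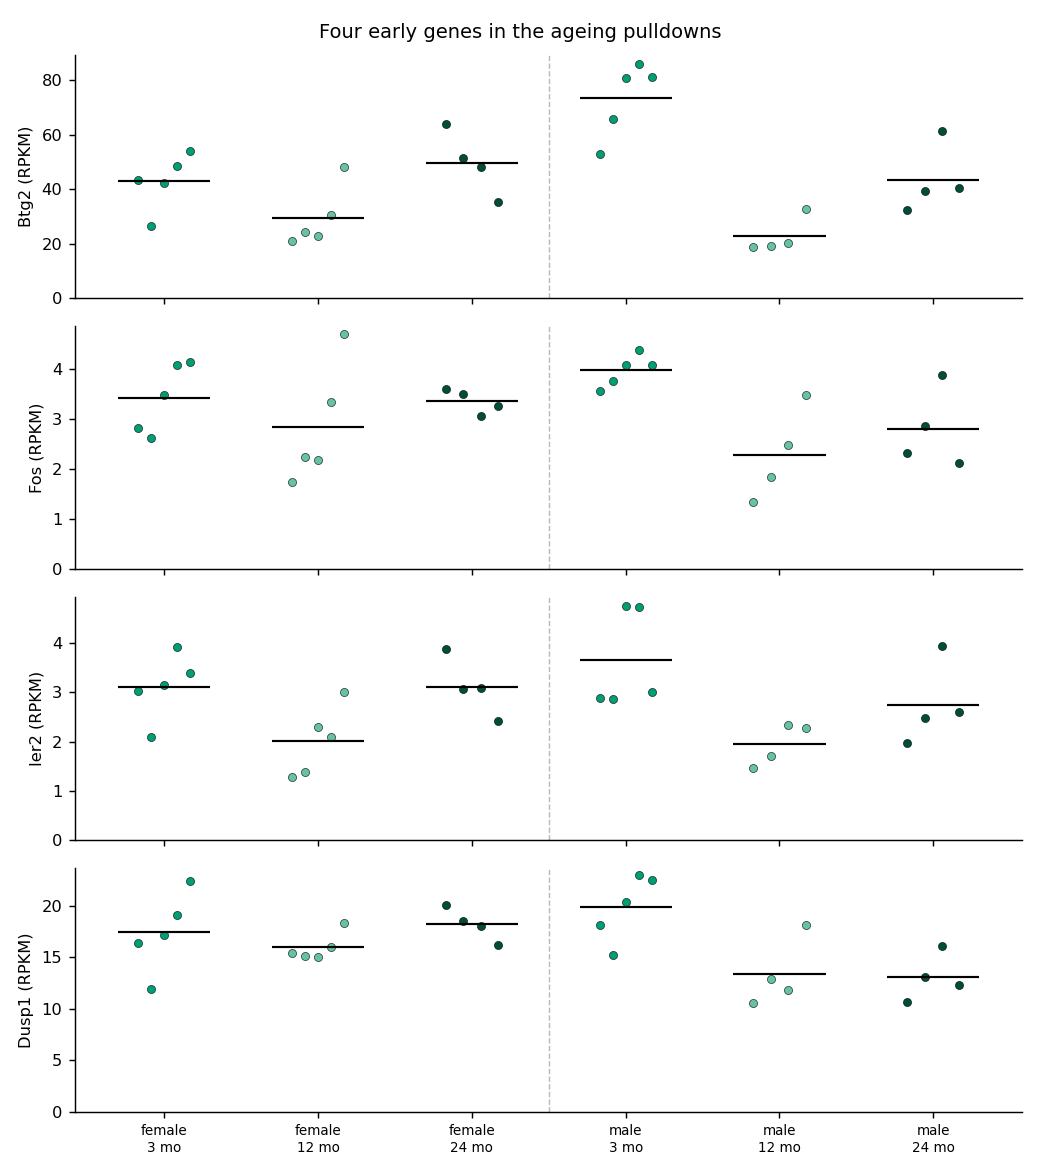
RPKM of Btg2, Fos, Ier2 and Dusp1 in the 27 ageing pulldowns by sex and age, where points are libraries and bars are group means. Males of 3 months lie highest for Btg2, at 52.8 to 86.1 RPKM, and males of 12 months lowest, at 18.6 to 32.6 RPKM.

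Within the ageing groups most other members varied with Fos from library to library. The share of all genes that varied with Fos was not computed, so this is not shown to be particular to the members. Over the 27 libraries, after subtraction of group means, Btg2 followed Fos with r = 0.83 (Spearman's rho = 0.81, permutation within groups, adjusted p = 9.5e-05 for each, the raw p of 1e-05 being the smallest these draws can give). Dusp1 (r = 0.73, rho = 0.76), Ier2 (r = 0.75, rho = 0.75), Fosb (r = 0.68, rho = 0.59), Junb (r = 0.65, rho = 0.60) and Egr1 (r = 0.59, rho = 0.64) did as well, with adjusted permutation p from 9.5e-05 to 0.029 over the 19 relations computed. Without the 2 libraries farthest from the median, r stayed between 0.51 for Junb and 0.81 for Btg2. In females and males taken apart r was 0.85 and 0.81 for Btg2, and 0.80 and 0.46 for Junb. Jun (r = -0.16, rho = -0.12), Atf3 (r = 0.14, rho = 0.27) and Zfp36 (r = 0.17, rho = 0.32) did not pass (adjusted permutation p from 0.259 to 0.652). Against the mean neuronal marker level none of the 10 passed by r, the nearest being Egr1 (r = 0.50, rho = 0.45, adjusted permutation p = 0.0539 and 0.0836) and Jun (r = 0.44, rho = 0.50, adjusted permutation p = 0.0631 and 0.0392).

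Relatives and other early genes moved with the members in part. In saline sorted cells against pulldowns, 8 of the 12 relatives of the members that were tested, out of 19, were called higher and 0 lower, beside the 12.2% of all genes called higher. Egr2, a zinc-finger relative of Egr1, was at 10.5 ± 3.1 RPKM (SD, n = 3) against 1.34 ± 0.25 RPKM (n = 4), and the RNA-decay relatives Zfp36l1 and Zfp36l2 were higher by 2.41 ± 0.36 and 2.12 ± 0.32 (SE) on the log2 scale. Of 20 further early response genes tested, out of 22, 11 were higher and 4 lower. Over all 13908 genes tested, 1694 were called higher and 3861 lower. Nfkbia, the NF-kB inhibitor, was at 21.6 ± 3.1 RPKM against 1.42 ± 0.33 RPKM. Arc and Npas4, early genes of neurons, went the other way, Arc with 0.0157 ± 0.010 RPKM in sorted cells against 17.7 ± 7.3 RPKM in pulldowns. Of 18 upstream kinases and factors, 2 were higher and 4 lower, beside those same counts over all genes. Their median was -0.18 on the log2 scale beside -0.25 for all genes. In LPS sorted cells Egr2 rose further, by 1.84 ± 0.33 (adjusted p = 0.0065), and 2 of 12 relatives and 5 of 20 further early genes were called higher, beside 7.01% of all genes.

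Outside the members, the 5 genes whose group means followed theirs most closely were sought over the 17 groups, by Pearson's r with the members' mean level on the log2(RPKM + 1) scale. They were Cdc42ep3 (r = 0.99), Adpgk, Cd97, Dock5 and Ckap4 (r = 0.98 for each). All 5 had higher means in both sorted groups than in the pulldowns of the LPS experiment, for example Cd97 at 15.3 RPKM in saline sorted cells and 1.48 RPKM in saline pulldowns. Among the members themselves r with that mean score ran from 0.63 for Btg2 to 0.99 for Ier2. Each member is part of the mean score, so a high r is in part built in. These values describe 17 groups, of which the 2 sorted groups lie far from the rest.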

How the data were processed

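The deposited table holds RPKM values per gene that the authors made from RNA-seq of 70 libraries, together with a length per gene. Per the submitters' processing notes, CASAVA, TopHat2 and featureCounts were used with mm10, and their versions and settings, strand included, are not given in the sources used here. Steps of the deposited RPKM gave whole reads for 100% of genes in each library (tolerance 0.01), so depth was known, and the RPKM denominator held more reads than fell in genes.

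Differences were tested with limma 3.58.1 (R 4.3.3) on log2(RPKM + 1) with a mean-dependent prior, for genes that averaged 1 RPKM or more in the fit, with Benjamini-Hochberg adjustment and a threshold of 0.05. A fold change on this scale understates low genes. The LPS groups other than input shared a fit, and so did the ageing groups. Other comparisons were fitted alone. RPKM is no count, so limma voom on the recovered reads was an alternative only. The other alternatives were a pseudocount of 0.1 RPKM, no filter, median-of-ratios scaling, replicate number as a block, a fit of the compared groups alone, and leaving out each library. Scaling to the microglial markers, by the mean of their log2(RPKM + 1), and the combinations without the filter for Atf3, were chosen after seeing the data.

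The members and all gene lists were chosen with earlier results of these data known. Members were all described, and from each further list the up to 4 genes called with the smallest p were eligible to be named. Correlations used 100000 permutations within groups. Further computation used Python 3.11.15 with matplotlib 3.10.9, scipy 1.17.1, numpy 2.4.6 and pandas 2.3.3. Replicate numbers did not pair the libraries: same-numbered libraries did not all correlate above 0.1 in any comparison.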

Additional observations from a re-analysis of the deposited data

Results flagged for a closer look

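Jun in the library TauP301L replicate 2 read 1.82 RPKM, far below the other 4 libraries of its group, whose median with it was 2.32 RPKM. The gap to the next library took a share of 0.802 of the group's range. Btg2 in the library male 12 months replicate 4 read 32.6 RPKM, far above the other 3, with a group median of 19.7 RPKM and a gap of 0.879 of the range. These were 2 of 120 groups of member values examined for a sample far from the rest, and chance alone would single out about 1 in 20.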

How the results depend on the processing

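The number of members called was the same under every alternative run for sorted cells against pulldowns under LPS (10), sorted cells against input (10) and LPS in pulldowns (0), and for sorted cells against pulldowns under saline (10) except with microglial scaling (9). For LPS in sorted cells the count of 2 became 1 with a pseudocount of 0.1 RPKM, median-of-ratios scaling or microglial scaling (Atf3) and in the fit of these groups alone (Zfp36, with Atf3 and Ier2 lost), stayed 2 with voom (Atf3 and Zfp36), and ran from 2 to 4 without single libraries. The difference between LPS effects gave 0 to 1 without single libraries, and pulldown against input 2 to 3, with 4 called under voom, median-of-ratios scaling or no filter. For poly(I:C) the count of 1 became 2 with voom (Fos added) and 6 with microglial scaling (1 to 2 without single libraries). There Jun reversed to -0.39. For APP/PS1 the count of 0 became 1 without the filter and 2 with voom. For tau the 1 became 2 with voom (Zfp36 added) and ran from 0 to 1 without single libraries. In females of 12 months the 1 became 0 without the filter, with median-of-ratios scaling, in its own fit or with microglial scaling, 2 with voom, and 0 to 1 without single libraries. In females of 24 months it became 2 without the filter or in its own fit, with Atf3 added. With microglial scaling it was also 2, but Zfp36 lost its call, and Jun (-0.32) and Egr1 (-0.53) were called lower. In that setting 353 of 8022 calls over all genes were higher. In males the 4 at 12 months became 7 with microglial scaling and ran from 1 to 4 without single libraries. The 3 at 24 months became 5 with voom and 8 with microglial scaling, with Jun reversed to -0.34 and Zfp36 to -0.25, and ran from 3 to 4 without single libraries. Microglial scaling called most of all genes tested lower for poly(I:C), females of 24 months and males of 12 and 24 months.

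With replicate number as a block, which did not pair the libraries, the count became 2 for poly(I:C) (Fos, adjusted p = 0.0234), 0 in females of 12 months (Zfp36, adjusted p = 0.0568) and 4 in males of 24 months (Fos, adjusted p = 0.0373). The other member counts were the same with the block. Over all genes, LPS in pulldowns called 189 genes, from 48 to 1720 over the alternatives and from 3 to 270 without single libraries. Atf3 rests on as few as 7 reads in input and 28 in pulldowns, which limits its precision, and all p-values cover the spread between libraries only.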
